A study of Mus musculus with 8 samples.

Results

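Mitochondrial ribosomal proteins are the proteins of the ribosome inside mitochondria, and their genes carry the symbols Mrpl (large subunit) and Mrps (small subunit). The members described here are the genes of the expression table whose symbol starts with Mrpl or Mrps followed by a digit. This gave 78 genes of 19301, of which 49 were Mrpl and 29 were Mrps. The mRNA of mouse tendon stem cells (TSCs), primary cells grown out of patellar tendon of C57BL/6J mice, was sequenced after 4 days in one of 2 media. The low glucose group (LG) had 5.5 mM glucose with DMSO per the methods of the study, and the high fat, high glucose group (HFHG) had a raised glucose concentration together with 300 µM palmitic acid, a saturated fatty acid. Each group had 4 biological replicates. The labels give no genotype, age or sex. Glucose and palmitic acid changed together, and their effects cannot be told apart. The comparison asks how the mRNAs of the mitochondrial translation machinery differ between TSCs under disordered glycolipid supply and TSCs under normal supply.

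The mitochondrial ribosome translates the few mRNAs that mitochondrial DNA encodes, and in mammals all of these encode subunits of the respiratory chain or of ATP synthase. Its rRNAs are transcribed inside the mitochondrion, whereas all of its proteins are encoded in the nucleus, made on cytosolic ribosomes and imported. Some of the proteins descend from those of bacterial ribosomes, and others were added in the mitochondrial lineage. The values below are FPKM, the reads of a gene divided by its length and by the reads of the library. They describe mRNA and not protein or mitochondrial translation. In bulk RNA, fewer cells of a type and less RNA per cell cannot be told apart.

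The libraries held 34308108 to 37362725 reads, and the members took 260 to 2292 reads each per library, so that all 78 were far above the detection limit. HFHG and LG libraries were separated by the first principal component of the tested genes, which held 81.0% of the variance. LG replicate 4 stood apart from the other LG libraries on the second component, which held 4.18%, and pairs of LG libraries with replicate 4 varied up to 11.9 times as much as Poisson counting allows, against at most 4.01 times for the other LG pairs. Of 9 tendon markers 7 were higher in HFHG, 1 was lower and 1 was not called. Col1a1 had a mean of 529 FPKM in HFHG and 206 in LG, and Dcn 605 and 609. The transcription factors Scx (2.27 and 1.45 FPKM) and Mkx (6.73 and 8.62) and the late tendon marker Tnmd (1.10 and 0.614) were low, and of these Mkx was the marker lower in HFHG. Macrophage markers were present in both groups. Lyz2 had 1637 FPKM in HFHG and 1765 in LG, Adgre1 had 26.5 and 38.0, and the sum over 7 macrophage markers was 1700 to 1750 FPKM in HFHG and 1846 to 1926 in LG. Of the 6 macrophage markers tested, 5 were lower in HFHG, and Cd163 was near 0 in both groups. The part of these cells in the results below was not tested. Endothelial, muscle and adipocyte markers summed to at most 4.06 FPKM per library in each list.

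Mitochondrial ribosomal protein mRNAs were modestly lower in HFHG as a group. The 4 HFHG libraries had summed FPKM of 1654, 1601, 1602 and 1599 (replicates in order), and the 4 LG libraries had 1838, 1802, 1840 and 1934. All HFHG libraries lay below all LG libraries, and the mean in HFHG (1614 ± 26.4, SD, n = 4) differed by -12.9% from the mean in LG (1853 ± 56.5, SD, n = 4). As RPM (reads scaled to the library total), which do not use gene length, the members took 1985 ± 33.8 in HFHG and 2217 ± 69.0 in LG (SD, n = 4), a difference of -10.5%. LG replicate 4 gave the highest LG value for 42 of the 78 members, and without it the LG mean was 1826 ± 21.6 (SD, n = 3) and the difference -11.6%. HFHG replicate 1 gave the highest HFHG value for 34 members. The order of the groups is the same in the plot of the members by library.

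**Figure D1:**
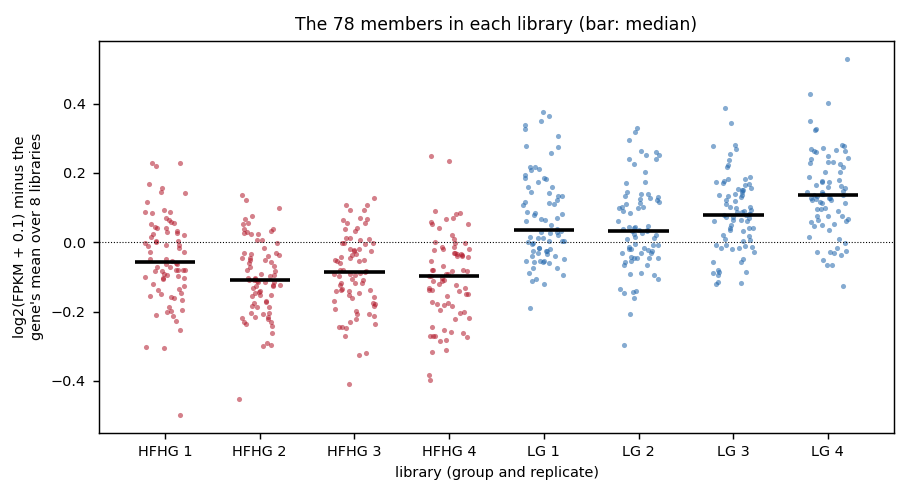
Each point is 1 of the 78 members in 1 library, plotted as its log2(FPKM + 0.1) minus its own mean over the 8 libraries, with HFHG in red, LG in blue and the median of each library as a black bar. The medians lie between -0.11 and -0.056 in the HFHG libraries and between 0.032 and 0.14 in the LG libraries, with LG replicate 4 highest.

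All 78 members passed the minimum of 0.5 FPKM in at least 4 libraries and were tested with limma, a linear model fitted on log2(FPKM + 0.1) over 11710 genes with p-values adjusted over all of them. At an adjusted p-value below 0.05, 40 members were lower in HFHG, 6 were higher and 32 were not called. Among all tested genes 64.8% were called, with 30.8% lower in HFHG and 34% higher, against 59.0% called, 51.3% lower and 7.69% higher among the members. The share of members called was thus near the background, and the directions were not. The median log2 fold change of the members was -0.13, beside 0.017 over all tested genes. The changes were small: the log2 fold changes ran from -0.75 to 0.20, and none of the members passed a log2 fold change of 1 in either direction at an adjusted p-value below 0.05, a limit that 5.31% of the tested genes passed. The 4 values of each group did not overlap for 38 members, 35 of them lower and 3 higher in HFHG, while 59.2% of all tested genes did not overlap, 28.1% lower and 31.1% higher. Without LG replicate 4, 34 members were lower and 6 higher, with a median of -0.12. FPKM are relative to the rest of the library, whose summed FPKM differed by -4.05% in HFHG from LG. After all libraries were set to the same sum, the median of the members was -0.074, with 31 lower and 6 higher, and the median of all tested genes was 0.075.

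Both subunits showed this pattern. Of the 49 large subunit genes 26 were lower, 4 were higher and 19 were not called, with a median log2 fold change of -0.15. Of the 29 small subunit genes 14 were lower, 2 were higher and 13 were not called, with a median of -0.12. The ratio of large to small subunit summed FPKM was 1.82 ± 0.0133 in HFHG and 1.94 ± 0.0276 in LG (SD, n = 4). Its range was 1.81 to 1.84 in HFHG and 1.91 to 1.97 in LG. Both sums go by symbol and weigh the members with the highest FPKM most, so that the ratio need not hold for most members. Symbols do not always give the place of a protein, since the products of Mrps18a and Mrps30 sit in the large subunit and that of Mrps36 belongs to the oxoglutarate dehydrogenase complex. By place, a split added after the data were seen, 27 of 51 large subunit genes and 12 of 26 small subunit genes were lower.

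**Figure D2:**
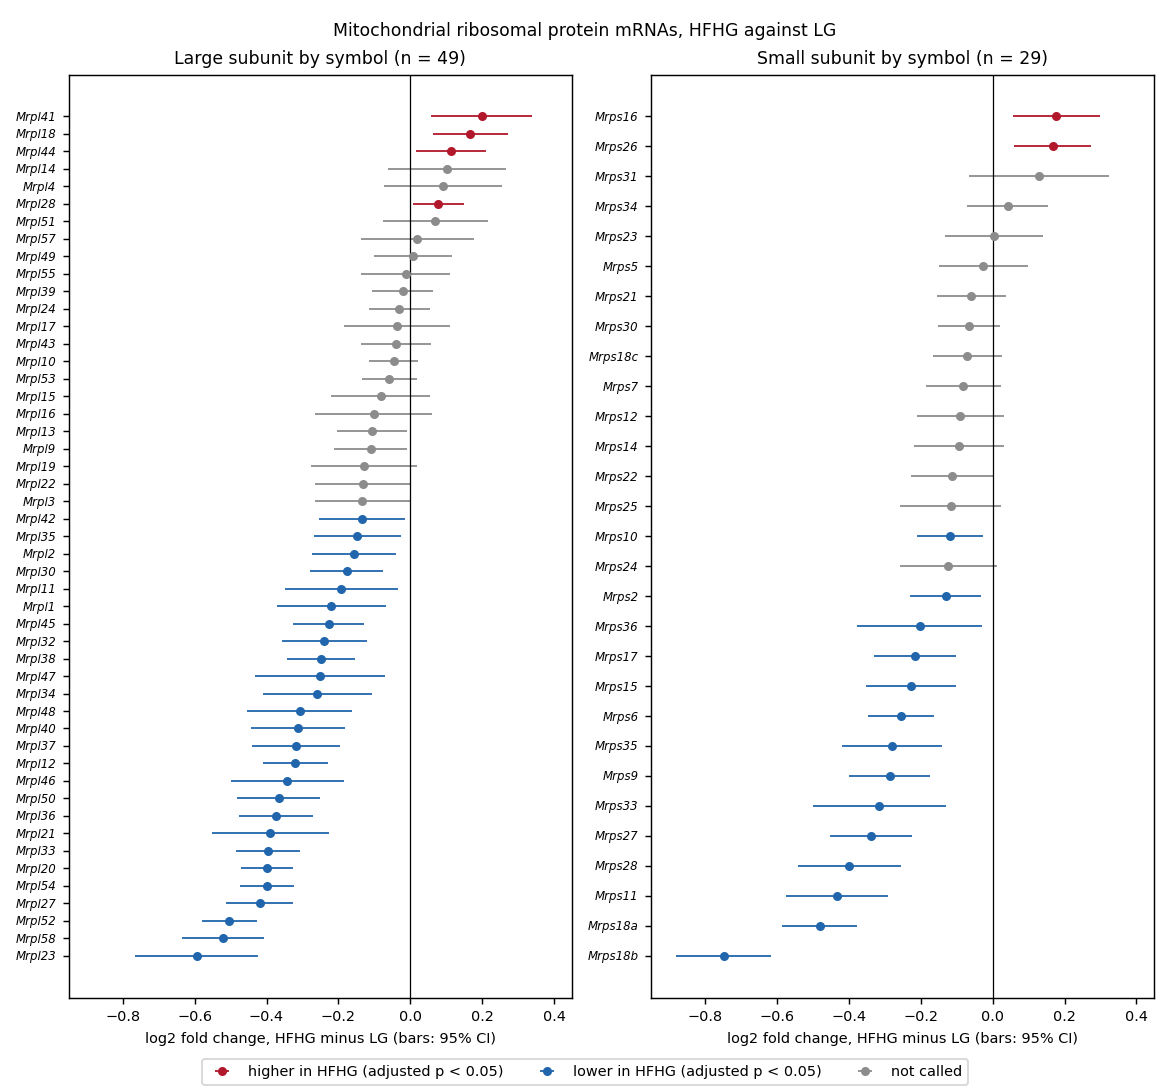
Each row is 1 member, with the large subunit on the left and the small subunit on the right, and its log2 fold change (HFHG minus LG) with the 95% confidence interval on the horizontal axis. Blue marks the 40 members lower and red the 6 higher in HFHG at an adjusted p-value below 0.05, and grey marks the 32 not called. Mrps18b lies farthest to the left at -0.75 and Mrpl41 farthest to the right at 0.20.

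The members were also split by the number in their symbol, as a rough guide to the origin of their proteins. Most proteins with a counterpart in bacterial ribosomes are numbered up to 36 in the large and up to 21 in the small subunit. The number does not always give the origin, which was not checked gene by gene. Of the 44 genes up to these numbers 23 were lower and 3 were higher (median -0.13). Of the 34 genes with higher numbers 17 were lower and 3 were higher (median -0.13). Among the genes with higher numbers, 5 of 13 in the small and 12 of 21 in the large subunit by symbol were lower. With Mrps30 moved to the large subunit and Mrps36 left out, the counts were 4 of 11 and 12 of 22. The difference between these shares was not tested.

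Of the 3 genes related to the bacterial small subunit protein S18, Mrps18b and Mrps18a were lower in HFHG and Mrps18c was not called. No conclusion is drawn on whether their changes differ. Mammals have 3 such proteins: those of Mrps18b and Mrps18c are placed in the small subunit and that of Mrps18a in the large one. Mrps18b (NCBI gene 66973, chr17:35910379-35916389 of mm10, minus strand) had 9.24, 10.6, 10.5 and 10.02 FPKM in the HFHG libraries and 16.9, 15.7, 16.6 and 18.9 in the LG libraries. The groups were widely separated, and its log2 fold change of -0.75 ± 0.061 (SE, adjusted p = 2.76e-07) was the lowest of the 78 members. Mrps18a (NCBI gene 68565, chr17:46110986-46128910, plus strand) had 29.7, 29.99, 30.9 and 29.4 FPKM in HFHG and 45.2, 44.2, 38.5 and 40.2 in LG, without overlap, and fell with a log2 fold change of -0.48 ± 0.0477 (SE, adjusted p = 1.77e-06). Mrps18c (NCBI gene 68735, chr5:100798627-100804471, plus strand) had 32.1, 35.2, 34.8 and 37.1 FPKM in HFHG and 35.2, 35.4, 37.8 and 37.6 in LG. These groups overlapped, and the log2 fold change of -0.070 (95% confidence interval -0.17 to 0.025, adjusted p = 0.174) was not called.

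Ratios within each library, in which the scaling between libraries cancels, describe the same genes. They were chosen after their values were seen, so that no p-value is given for them. The ratio of Mrps18b to Mrps18c was 0.287, 0.302, 0.301 and 0.270 in HFHG and 0.479, 0.443, 0.439 and 0.504 in LG. The ratio of Mrps18a to Mrps18c had a mean of 0.865 ± 0.056 in HFHG and 1.16 ± 0.131 in LG (SD, n = 4), with a highest HFHG value of 0.925 and a lowest LG value of 1.02. The ratio of Mrps18a to Mrps18b was 3.22, 2.82, 2.95 and 2.94 in HFHG and 2.68, 2.82, 2.32 and 2.12 in LG, and the groups nearly touched. The log2 difference between the groups was -0.68 ± 0.0606 (SE) for Mrps18b over Mrps18c, -0.41 ± 0.095 for Mrps18a over Mrps18c and 0.27 ± 0.103 for Mrps18a over Mrps18b.

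The sequences upstream of the 3 S18-related genes are shown because the genes encode related proteins, so that their promoters can be set side by side. Each is the 250 bases before the transcription start in RefSeq (build GRCm38.p6), read 5′ to 3′ on the strand of the gene, and capitals mark exact matches to 5 short motifs on either strand: CCGGAAG (the core bound by GABPA and other ETS factors), GCATGCG (NRF1), AAGATGG (YY1), CACGTG (the E-box bound by Myc and others) and CCAAT (NFY).
Mrps18b, chr17:35916441-35916690, minus strand: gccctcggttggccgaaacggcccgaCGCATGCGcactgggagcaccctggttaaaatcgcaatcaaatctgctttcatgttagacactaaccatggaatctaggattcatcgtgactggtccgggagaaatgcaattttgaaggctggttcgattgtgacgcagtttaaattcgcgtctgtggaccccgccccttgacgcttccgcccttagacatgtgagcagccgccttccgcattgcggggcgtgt
Mrps18a, chr17:46110754-46111003, plus strand: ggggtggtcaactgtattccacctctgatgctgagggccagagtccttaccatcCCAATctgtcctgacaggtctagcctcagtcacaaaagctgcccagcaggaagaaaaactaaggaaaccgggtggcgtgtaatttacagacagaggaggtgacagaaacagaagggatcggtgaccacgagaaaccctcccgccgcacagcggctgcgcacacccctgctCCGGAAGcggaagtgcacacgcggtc
Mrps18c, chr5:100798509-100798758, plus strand: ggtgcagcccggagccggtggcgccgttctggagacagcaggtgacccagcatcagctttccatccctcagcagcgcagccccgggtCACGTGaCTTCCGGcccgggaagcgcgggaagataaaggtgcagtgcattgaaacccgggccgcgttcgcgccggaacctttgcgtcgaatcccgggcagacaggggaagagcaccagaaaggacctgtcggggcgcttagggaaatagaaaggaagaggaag
The Mrps18b sequence holds the NRF1 letters, which overlap themselves on the opposite strand. The Mrps18a sequence holds CCAAT and the ETS core, and the Mrps18c sequence holds the E-box next to the ETS core. The RefSeq windows go on for 50 bases past the start, and there Mrps18b also has the ETS core and Mrps18a the YY1 letters. All 3 genes thus had the ETS core in their window, and a link between these letters and the change was not tested.

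The large subunit had further genes with clear decreases. Mrpl23 (NCBI gene 19935, chr7:142532686-142540747), which encodes a relative of the bacterial protein L23 near the exit of the peptide tunnel, had 11.4, 8.96, 9.25 and 10.5 FPKM in HFHG and 15.6, 13.6, 14.9 and 16.6 in LG. All HFHG values lay below all LG values, with a log2 fold change of -0.59 ± 0.0787 (SE, adjusted p = 2.53e-05). Mrpl58 (NCBI gene 68572, chr11:115403752-115412674), also known as Ict1, encodes a peptidyl-tRNA hydrolase that is built into the large subunit and frees stalled ribosomes. It had 20.7, 21.5, 19.4 and 19.5 FPKM in HFHG and 30.5, 26.2, 29.5 and 30.4 in LG, without overlap, and a log2 fold change of -0.52 ± 0.0523 (SE, adjusted p = 2.01e-06).

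Mrpl52 (NCBI gene 68836, chr14:54426909-54429756), which encodes a mitochondria-specific protein, had 85.7, 79.2, 82.4 and 80.7 FPKM in HFHG and 114, 123, 111 and 118 in LG. It combined one of the highest levels of the members with a fall of 29.5% in the mean (log2 fold change -0.50 ± 0.0353, SE, adjusted p = 6.58e-08). Mrpl27 (NCBI gene 94064, chr11:94653767-94660089), the relative of the bacterial L27 near the peptidyl transferase centre, had 31.0, 30.2, 29.3 and 28.5 FPKM in HFHG and 41.7, 37.2, 38.6 and 41.8 in LG. Its groups did not overlap, and its log2 fold change was -0.42 ± 0.0433 (SE, adjusted p = 2.60e-06). Mrpl54 (NCBI gene 66047, chr10:81264713-81266934), a mitochondria-specific member, had 42.3, 40.7, 40.2 and 38.4 FPKM in HFHG and 53.7, 53.3, 51.3 and 54.9 in LG, without overlap, with a log2 fold change of -0.40 ± 0.0344 (SE, adjusted p = 4.62e-07).

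Mrpl12 (NCBI gene 56282, chr11:120484613-120489065) encodes the stalk protein that recruits translation factors and has also been described as a partner of the mitochondrial RNA polymerase. It had 39.5, 40.01, 37.4 and 37.5 FPKM in HFHG and 45.6, 46.7, 48.7 and 52.0 in LG. The groups were separate, and the log2 fold change was -0.32 ± 0.0417 (SE, adjusted p = 2.18e-05). The most abundant member, Mrpl33 (NCBI gene 66845, chr5:31596935-31664384), the relative of bacterial L33, had 94.0, 103, 102 and 106 FPKM in HFHG and 135, 125, 136 and 138 in LG. It was also lower without overlap, with a log2 fold change of -0.40 ± 0.0406 (SE, adjusted p = 2.47e-06).

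**Figure D3:**
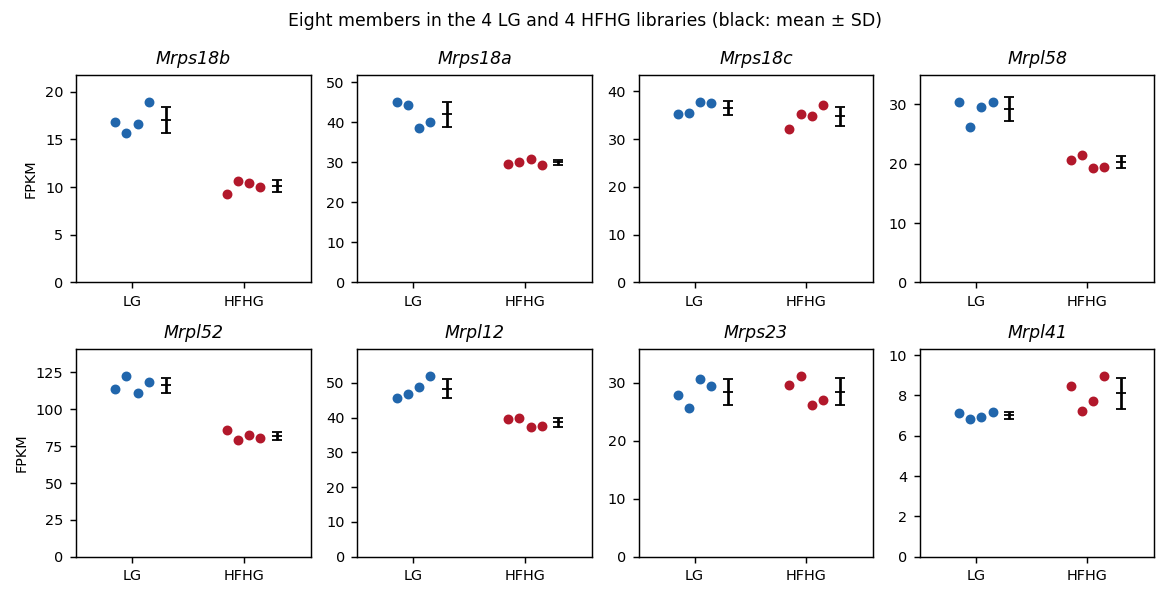
FPKM of 8 members in the 4 LG libraries (blue) and the 4 HFHG libraries (red), each axis starting at 0, with the mean and SD of each group in black. Mrps18b, Mrps18a, Mrpl58, Mrpl52 and Mrpl12 are lower in HFHG without overlap, Mrps18c and Mrps23 overlap between the groups, and Mrpl41 is higher in HFHG.

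A gene of each subunit, Mrps11 and Mrpl46, share a start region, and both were lower. Mrps11 (NCBI gene 67994, chr7:78783119-78792989, plus strand) encodes the relative of bacterial S11, and Mrpl46 (NCBI gene 67308, chr7:78775236-78783531, minus strand) encodes a mitochondria-specific protein. Mrpl46 was named after its values were seen, as the neighbour of Mrps11. They are arranged head to head, and their exons overlap by 173 bases on opposite strands. Mrps11 had 15.5, 15.6, 17.3 and 13.6 FPKM in HFHG and 21.8, 19.1, 21.2 and 21.7 in LG (log2 fold change -0.43 ± 0.0654, SE, adjusted p = 7.88e-05). Mrpl46 had 7.26, 7.72, 8.13 and 8.83 FPKM in HFHG and 8.95, 11.0, 10.1 and 10.5 in LG (log2 fold change -0.34 ± 0.0721, SE, adjusted p = 0.00112). For neither gene did the 2 groups overlap. The library kit kept the strand, but whether the reads were counted by strand is not given in the sources used here, so that reads in the shared bases may count for either gene. The 250 bases before each start in RefSeq are shown because the 2 windows run into each other. They share 41 bases, read from opposite strands, and both lie within the GENCODE extent of Mrpl46, whose RefSeq start is further inside the gene.
Mrps11, chr7:78782881-78783130, plus strand: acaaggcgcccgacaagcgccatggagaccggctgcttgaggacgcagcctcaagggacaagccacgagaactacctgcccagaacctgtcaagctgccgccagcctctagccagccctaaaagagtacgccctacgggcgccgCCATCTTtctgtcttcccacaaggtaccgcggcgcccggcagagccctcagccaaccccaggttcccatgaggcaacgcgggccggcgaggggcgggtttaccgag
Mrpl46, chr7:78783090-78783339, minus strand: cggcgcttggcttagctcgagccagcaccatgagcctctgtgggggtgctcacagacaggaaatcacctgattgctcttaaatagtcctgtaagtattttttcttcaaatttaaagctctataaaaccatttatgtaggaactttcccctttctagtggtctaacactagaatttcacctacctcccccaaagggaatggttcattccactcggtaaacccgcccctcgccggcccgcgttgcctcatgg
The Mrps11 window holds the YY1 letters on the opposite strand, in capitals, and the Mrpl46 window holds none of the 5 motifs.

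Only 6 members were higher in HFHG, all by small amounts. For Mrpl41, Mrps16, Mrpl18 and Mrps26 the gene length behind the FPKM was far from that of the principal GENCODE transcript, as given below. Mrpl41 (NCBI gene 107733, chr2:24974117-24975098), a mitochondria-specific protein also described as a partner of Bcl-2, had 8.48, 7.23, 7.74 and 8.97 FPKM in HFHG and 7.15, 6.83, 6.94 and 7.20 in LG. The nearest values of the 2 groups were 7.23 and 7.20, and the log2 fold change was 0.20 ± 0.0644 (SE, adjusted p = 0.0166). Without HFHG replicate 4 it was 0.15 (adjusted p = 0.055) and no longer called. Mrps16 (NCBI gene 66242, chr14:20389304-20393634), the relative of bacterial S16, had 36.2, 33.1, 29.8 and 32.7 FPKM in HFHG and 27.1, 30.4, 28.6 and 30.3 in LG. The groups overlapped, and the log2 fold change was 0.18 ± 0.0557 (SE, adjusted p = 0.0138).

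Mrpl18 (NCBI gene 67681, chr17:12911349-12916345), the relative of bacterial L18, had 12.7, 13.0, 12.4 and 12.5 FPKM in HFHG and 11.2, 10.3, 11.9 and 11.7 in LG (log2 fold change 0.17 ± 0.048, SE, adjusted p = 0.00838). Its exons overlap 141 bases of Tcp1 on the opposite strand, a gene that was lower in HFHG with a log2 fold change of -0.41. Mrps26 (NCBI gene 99045, chr2:130563742-130568695), a mitochondria-specific protein, had 29.5, 25.8, 25.3 and 27.0 FPKM in HFHG and 23.8, 23.0, 23.8 and 25.3 in LG (log2 fold change 0.17 ± 0.049, SE, adjusted p = 0.0097). HFHG replicate 3 and LG replicate 4 were nearly equal for Mrps26, while the groups of Mrpl18 were clearly apart. Mrpl44 (NCBI gene 69163, chr1:79776018-79781445), which encodes a mitochondria-specific protein with an RNase III fold, and Mrpl28 (NCBI gene 68611, chr17:26123500-26126613) had log2 fold changes of 0.11 (adjusted p = 0.0398) and 0.079 (adjusted p = 0.0497). Their groups overlapped, and their calls were lost in 10 and 13 of 18 alternative analyses.

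For the 32 members that were not called, the confidence intervals bound the change. The lowest limit of these intervals was -0.276 (Mrpl19) and the highest was 0.323 (Mrps31) in log2 fold change, both named after their values were seen. Mrps23 (NCBI gene 64656, chr11:88204388-88211507), which encodes a mitochondria-specific protein, had 29.5, 31.2, 26.2 and 27.1 FPKM in HFHG and 27.9, 25.6, 30.7 and 29.5 in LG, and its log2 fold change of 0.0041 was the smallest in size (95% confidence interval -0.13 to 0.14). Mrpl49 (0.0072, interval -0.10 to 0.12) and Mrpl55 (-0.013, interval -0.14 to 0.11) followed, and the groups of all these 3 genes overlapped. Mrps12 (NCBI gene 24030, chr7:28739641-28741820), which encodes the relative of the decoding protein S12, had 22.8 ± 1.51 FPKM in HFHG and 24.2 ± 1.52 in LG (SD, n = 4, log2 fold change -0.090, interval -0.21 to 0.030). Mrps30 (NCBI gene 59054, chr13:118378381-118387252), whose product sits in the large subunit, had 17.1 ± 0.655 and 17.9 ± 0.548 FPKM (log2 fold change -0.067, interval -0.15 to 0.020).

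Mrps36 (NCBI gene 66128, chr13:100735955-100744659) had 22.2, 21.5, 22.8 and 21.1 FPKM in HFHG and 30.5, 21.8, 23.6 and 25.7 in LG. LG replicate 1 was high and the groups overlapped. The log2 fold change of -0.20 ± 0.0799 (SE, adjusted p = 0.0407) became -0.11 (adjusted p = 0.0923) without LG replicate 1, and the call was lost in 8 of 18 alternative analyses. Mrpl13 (NCBI gene 68537, chr15:55534094-55557748) and Mrps21 (NCBI gene 66292, chr3:95862634-95871519), relatives of bacterial L13 and S21, were among the 5 members with the highest FPKM and were not called, with log2 fold changes of -0.11 (adjusted p = 0.0524) and -0.060 (adjusted p = 0.252). A high level therefore went with a decrease in Mrpl33, Mrpl52 and Mrpl54 and with no call in Mrpl13 and Mrps21.

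The levels of the members spanned a 42.0-fold range of mean FPKM, from 2.79 to 117 with a median of 17.1, although the ribosome holds its proteins in nearly equal numbers. Most of this range moved with the gene length used for the FPKM. The lengths could be recovered from the values and ran from 412 to 8707 bases, while the coding sequences ran from 195 to 1326 bases. Across the 78 members, Spearman's rho between mean FPKM and length was -0.79, and rho between reads and length was 0.086, both given as descriptions since length enters FPKM as its divisor. The reads summed over the 8 libraries spanned 6.92-fold, from 2497 to 17283. The 9 members with lengths of 4000 bases or more had 2.79 to 6.19 FPKM but 3678 to 11930 reads. The recovered length exceeded the principal GENCODE transcript by more than 2 times for 8 members and was under 0.5 times it for 9. Of the members named above, Mrpl18, Mrpl23 and Mrpl41 were too long in this way and Mrpl58, Mrps16, Mrps26 and Mrps30 too short. Mrpl41 had a recovered length of 2423 bases, while all its GENCODE exons together hold 888, and Mrpl18 had 2501 against 1398. Which bases were counted for the genes that were too long or too short is not known. The values of Mrpl41 and Mrpl18 may not be those of the printed gene alone. By FPKM the top 5 were Mrpl33 (117), Mrpl52 (99.2), Mrpl13 (70.7), Mrps21 (57.8) and Mrpl54 (46.9), all with lengths of at most 786 bases. By reads these genes ranked 3, 12, 2, 27 and 34.

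**Figure D4:**
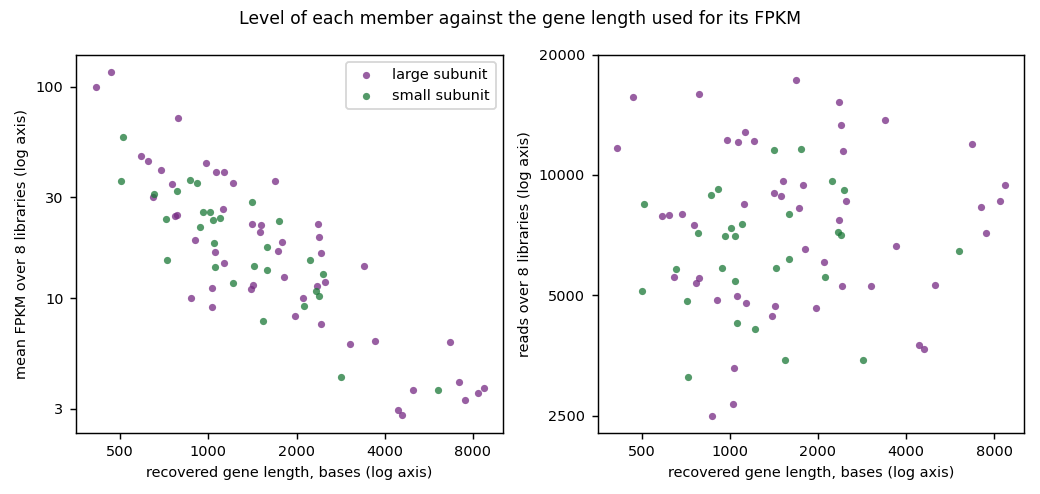
Each point is 1 member (purple, large subunit; green, small subunit), with the gene length recovered from its FPKM on the horizontal axis and, on the vertical axes, the mean FPKM over 8 libraries (left) and the reads summed over 8 libraries (right), all on log axes. FPKM falls with length (Spearman's rho -0.79), while reads show no such slope (0.086).

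Length also moved with the fold change in the whole table. Among all tested genes, 44.1% of those under 1000 bases were lower in HFHG, 37.8% from 1000 to 2000, 33.7% from 2000 to 4000 and 23.6% above. Of the members, 16 of 23 (69.6%), 12 of 30 (40%), 10 of 16 (62.5%) and 2 of 9 (22.2%) were lower in these ranges, the upper 2 of which hold fewer than 20 members. The median log2 fold change of the members was below that of all tested genes in each range, at -0.25 against -0.12, -0.11 against -0.050, -0.14 against 0.0019 and -0.12 against 0.069. The part of length in the result was not tested.

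The members are spread over 17 chromosomes, with 11 on chromosome 11 and 8 on chromosome 17. Exons of 23 members overlap those of another protein-coding gene, on the opposite strand for 20 of them, among which are Mrpl13 (Mtbp), Mrpl27 (Eme1), Mrpl44 (Wdfy1), Mrpl49 (Syvn1) and Mrps30 (B430218F22Rik), so that the values of these genes are uncertain by the shared reads. Without these, 32 of 55 members were lower and 4 higher, with a median log2 fold change of -0.16. For 33 members another gene starts within 1000 bases on the opposite strand, and 27 such pairs could be tested, 1 of which was Mrps11 with Mrpl46. In the other 26 pairs the neighbour was no member. Where the member was lower (13 pairs), the neighbour was lower in 3, higher in 2 and not called in 8, beside 30.8% lower among all tested genes. Where the member was higher (3 pairs: Mrpl18 with Tcp1, Mrpl41 with Pnpla7 and Mrpl44 with Wdfy1), the neighbour was lower in all 3. Where the member was not called (10 pairs), the neighbour was lower in 3, higher in 3 and not called in 4.

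RefSeq windows from 250 bases before to 50 bases after the start were found for 69 of the 78 members (75 windows). The ETS core CCGGAAG was in 34.7% of these windows, in 17.5% of the windows of tested genes and in 8.86% of all windows. The YY1 letters AAGATGG were in 17.3%, 7.03% and 6.34%, the NRF1 letters GCATGCG in 10.7%, 6.28% and 3.58%, the E-box in 9.33%, 9.99% and 7.15%, and CCAAT in 40%, 37.4% and 37.4%. Both strands were searched and matches had to be exact. In the order of lower members, members not called and higher members, the ETS core was found in 11 of 36, 12 of 27 and 3 of 6, and the YY1 letters in 9 of 36, 4 of 27 and 0 of 6. In the same order the NRF1 letters were found in 3, 5 and 0, the E-box in 4, 1 and 0 and CCAAT in 15, 7 and 5 members. These are matches of letters and not binding sites.

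The other parts of the mitochondrial translation system were taken from lists of known genes, and their counts stand beside 30.8% lower, 34% higher and 64.8% called among all tested genes. The 5 listed subunits without an Mrp symbol had a median log2 fold change of -0.25, and 4 were lower: Gadd45gip1 (-0.30), Aurkaip1 (-0.28), Chchd1 (-0.25) and Ptcd3 (-0.14). Dap3, the GTP-binding protein of the small subunit head, had 11.8 ± 0.492 FPKM in HFHG and 11.6 ± 0.231 in LG (SD, n = 4) and was not called. Of 26 factors listed for assembly and RNA modification, 8 were lower (30.8%), 3 were higher (11.5%) and 15 were not called. Their median was -0.0064. Fastkd2, which binds the large rRNA, fell from 4.98 to 2.87 FPKM in the mean (log2 fold change -0.78), and Pusl1, a pseudouridine synthase, and Noa1, a GTPase of small subunit assembly, had -0.73 and -0.41. Rpusd3 (0.29), Mrm2 (0.28), an rRNA methyltransferase, and Rbfa (0.20), which binds the small subunit during maturation, were higher.

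Of 16 mitochondrial translation factors 6 were lower (37.5%), none was higher and 10 were not called, with a median of -0.031. Lrpprc, which with Slirp keeps mitochondrial mRNAs stable, had a mean of 8.80 FPKM in HFHG and 15.4 in LG (log2 fold change -0.80), Pdf, the deformylase of new peptides, had -0.49 and Mrrf, the recycling factor, had -0.47. Among 15 tested genes of mitochondrial DNA expression and maintenance, 4 were lower and 3 higher. Trmt10c, a part of mitochondrial RNase P, was lower (-0.68), as were Pnpt1 (-0.38) and Hsd17b10 (-0.36), while Tfb2m, the transcription factor that opens the mitochondrial promoter, was higher (0.75), together with Polg2 (0.30) and Elac2 (0.28). No mRNA encoded by mitochondrial DNA was found under a symbol that starts with mt-, so that these mRNAs were not analysed here.

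The lists of regulators, respiratory chain and cytosolic ribosome give the surroundings of these values. Of 11 tested nuclear regulators, 5 were lower: Myc (-1.04), Gabpb2 (-0.45), Gabpa (-0.20), Yy1 (-0.19) and Zfp143 (-0.16). Esrra (0.60), Sp1 (0.16) and Gabpb1 (0.14) were higher. Nrf1 (-0.097), Pprc1 (-0.16) and Hcfc1 (-0.060) were not called, and the coactivators Ppargc1a and Ppargc1b, at means of at most 0.0616 FPKM, were below the level for testing. Of 85 tested subunits of the respiratory chain and ATP synthase (OXPHOS), 31 were lower (36.5%) and 12 higher (14.1%), with a median of -0.051. Their largest decreases were in Cox6a2 (-2.52), Ndufs8 (-0.67) and Uqcrq (-0.56) and their largest increases in Cox6b2 (1.83), Ndufa4l2 (0.31) and Cox6a1 (0.26). Of 83 tested cytosolic ribosomal protein genes, 81 were lower and only Rps27l (0.19) was higher, with a median of -0.57, and Rpl12 (-0.90), Rps12 (-0.87) and Rpl35 (-0.80) fell most. The median of the members lay between those of the OXPHOS and the cytosolic ribosomal protein genes, and the difference between the lists was not tested.

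**Figure D5:**
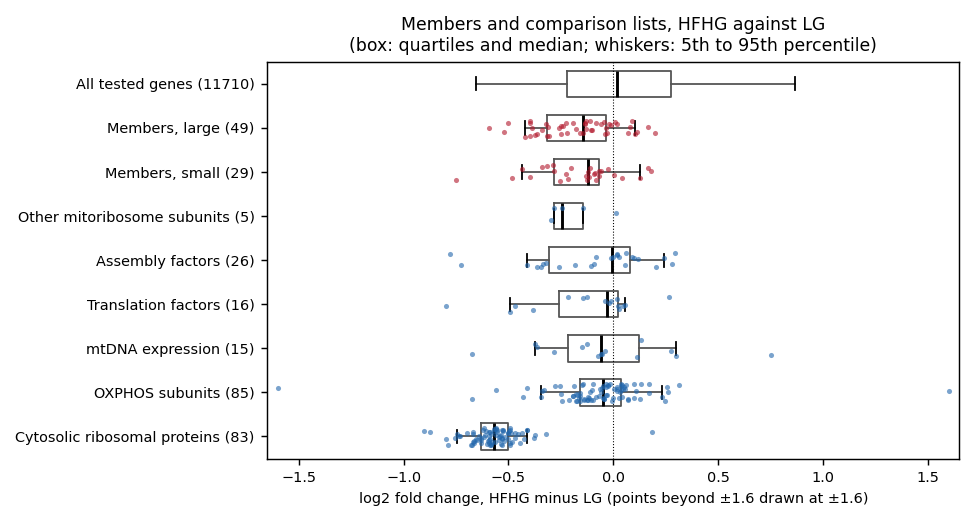
Log2 fold change (HFHG minus LG) of all tested genes, of the members by subunit (red points) and of the comparison lists (blue points), with the number of tested genes in parentheses, boxes for the quartiles and median, and whiskers from the 5th to the 95th percentile. The medians are 0.017 for all tested genes, -0.15 and -0.12 for the large and small subunit members, -0.051 for OXPHOS subunits and -0.57 for cytosolic ribosomal proteins.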

How the data were processed

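Total RNA of the 8 TSC cultures was turned into stranded mRNA libraries and sequenced on a NovaSeq instrument. Per the labels, reads were aligned with HISAT2 2.1.0 to mm10, and the authors deposited FPKM for 19301 genes. The counting program, annotation and filters are not given in the sources used here, and the doses come from the study's methods. Groups and replicate numbers came from the sample labels. Library totals, gene lengths and whole reads were recovered from the FPKM. They are the values that make each gene a whole number of reads in all libraries (100% of genes within 0.0001 of a whole read). On simulated data 99.93% of the 2879 genes with at least 100 reads came back exact, and genes with fewer reads were left out. Recovered reads served for depth and for 1 alternative.

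Genes with at least 0.5 FPKM in at least 4 libraries were tested with limma 3.58.1 (R 4.3.3) on log2(FPKM + 0.1), lmFit and eBayes with an intensity trend, HFHG minus LG without covariates, and Benjamini-Hochberg adjustment over 11710 genes. All log2 fold changes are on the log2(FPKM + 0.1) scale. On simulated data for this comparison (11484 genes) the fit found 73 of 100 genes changed by 0.3 and all 99 changed by 1 on the log2 scale, and 6 unchanged genes were called. Far fewer genes were changed there than were called in the data (64.8%). The simulated spread beyond counting was the same for all genes, without a library like LG replicate 4, so that these rates may not hold for the data. P-values set the difference between the group means against the spread between these cultures. Counting error of reads is included in that spread. Whether the replicate cultures came from separate mice or isolations is not given in the sources used here. Gene positions come from GENCODE M21 (GRCm38, the assembly of mm10), NCBI gene numbers from the deposited table.

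Members and lists were chosen with earlier results of these data known. Named members are the 8 with the largest change in each direction among those called (only 6 were higher), the 5 with the highest FPKM, the 3 with the smallest change, and genes with a special place or second role. In the lists, the 3 largest called changes in each direction and all regulators are named. Alternatives were other pseudocounts, filters and scalings, a replicate block, no intensity trend, each library left out and limma voom on the recovered reads. Added later were the subunit by place and the exclusion of overlapping genes.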

Additional observations from a re-analysis of the deposited data

Results flagged for a closer look

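In the groups of 4 libraries, a library far from the other 3 was looked for in 56 sets of values (the 25 named members and the summed FPKM of all members, of the large and of the small subunit, each in both groups), and 2 were found. Chance alone flags about 5% of such sets, so that 2 are no more than chance gives. The summed FPKM of the members in HFHG replicate 1 was 1654, against 1599 to 1602 in the other HFHG libraries. It was still below every LG library. Mrpl44 in HFHG replicate 2 had 11.1 FPKM, against 12.2 to 12.4 in the other HFHG libraries, and this value lay within the range of the LG libraries.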

How the results depend on the processing

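The calls were repeated under 18 alternatives. Of the 40 members lower in HFHG, 31 were lower in all of them, and of the 6 higher members 3 (Mrpl18, Mrps16 and Mrps26) were higher in all of them. Of the 17 named members that were called, 13 kept their call everywhere, and no called member reversed. The number of members lower ranged from 31 (libraries rescaled to the same sum) to 50 (median-ratio scaling), and the calls over all tested genes moved the same way, to 3002 lower and 4682 higher with the same sum and 4053 lower and 3548 higher with median ratios. The 6 higher members were less stable: leaving out 1 library gave 3 (without HFHG replicate 4) to 6, and for the large subunit, with 4, it gave 1 to 4. Median-ratio scaling, the replicate block and voom on recovered reads each gave 2 higher in the large subunit. With the libraries rescaled to the same sum, the median log2 fold change was -0.074 for the members, -0.088 for the large subunit, -0.060 for the small subunit and 0.075 for all tested genes. Quantile normalization gave -0.20 for the large subunit, median-ratio scaling gave -0.16 for the small subunit, and for all tested genes these scalings turned the median from 0.017 to -0.022 and -0.019. That median was 0.042 without a filter and 0.010 with a minimum of 1 FPKM. These differences between scalings follow from their construction, since FPKM are relative values. Voom called 39 members lower and 4 higher.

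Same-numbered HFHG and LG libraries did not vary together (correlations -0.0736 to -0.0056). These values show no sign of pairing by number, but they cannot show whether same-numbered cultures came from the same cells or mouse. With the replicate block, 38 members were lower and 4 higher. The smallest changes called were near 0.08 on the log2 scale, and standard errors of 0.031 to 0.089 set the limit for the members not called.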
